A study of Rattus norvegicus with 6 samples.

Results

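The genes described here are 10 members of the bone morphogenetic protein (BMP) pathway: the ligands Bmp2, Bmp4, Bmp5 and Bmp6, the receptors Bmpr1a and Bmpr2, the secreted inhibitor Grem1, and the target genes Id1, Id2 and Id3. They were taken by gene name, not by their values, from a table of 70376 linear transcripts in which 21210 gene names carried at least 1 annotated (Ensembl) transcript. Together they held 65 transcript entries. The samples were lungs of Sprague-Dawley rats that were 7 weeks old at the start, with 3 control samples (saline) and 3 model samples (a single intratracheal dose of bleomycin, 7 mg/kg, which injures the lung and leads to fibrosis). Lungs were taken at day 28 and total RNA was sequenced after ribosomal RNA depletion, so that transcripts of introns and non-coding RNAs were measured along with mRNAs. Bleomycin injury is a model of pulmonary fibrosis (PF) after acute damage, and a whole lung was measured as a mixture of all its cell types.

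BMPs are secreted ligands of the transforming growth factor beta family. They bind a pair of type I receptors (such as Bmpr1a) and a pair of type II receptors (such as Bmpr2), and the type I receptor then phosphorylates Smad1, Smad5 and Smad9, which enter the nucleus with Smad4 and switch on targets such as the Id genes. Id proteins bind basic helix-loop-helix transcription factors and keep them off DNA, and secreted inhibitors such as gremlin 1 (Grem1) trap BMP ligands before they reach a receptor. In the lung, the pathway is known for its role in branching, in the endothelium of pulmonary vessels (loss of Bmpr2 function is a cause of pulmonary arterial hypertension) and as an opponent of transforming growth factor beta in fibrosis.

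The 3 Id genes are targets of the pathway, so the sequences around their starts are shown. They are taken from RefSeq (build GRCr8), which held such a window for 9 of the 10 members, and run from 250 bases before to 50 bases after the annotated start. Capitals mark CCAAT or its reverse complement ATTGG (a binding motif of the factor NF-Y), TATAAA or its reverse complement TTTATA (the TATA motif) and CAGAC or its reverse complement GTCTG (a core motif of Smads). A further Smad motif, GGCGCC, which is its own reverse complement, was also searched.
Id1 promoter, chr3:161671314-161671613 (+ strand): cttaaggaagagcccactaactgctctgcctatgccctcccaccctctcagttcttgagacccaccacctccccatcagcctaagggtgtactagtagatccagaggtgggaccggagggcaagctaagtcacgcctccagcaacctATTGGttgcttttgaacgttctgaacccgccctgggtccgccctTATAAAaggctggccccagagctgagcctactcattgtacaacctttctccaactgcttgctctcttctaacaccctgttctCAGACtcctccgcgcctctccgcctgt
Id2 promoter, chr6:47470946-47471245 (- strand): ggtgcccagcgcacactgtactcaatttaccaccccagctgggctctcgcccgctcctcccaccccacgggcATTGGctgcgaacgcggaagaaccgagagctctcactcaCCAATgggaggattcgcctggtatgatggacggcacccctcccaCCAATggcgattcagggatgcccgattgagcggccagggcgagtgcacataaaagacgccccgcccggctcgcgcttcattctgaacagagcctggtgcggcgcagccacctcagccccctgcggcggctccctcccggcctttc
Id3 promoter, chr5:153656041-153656340 (+ strand): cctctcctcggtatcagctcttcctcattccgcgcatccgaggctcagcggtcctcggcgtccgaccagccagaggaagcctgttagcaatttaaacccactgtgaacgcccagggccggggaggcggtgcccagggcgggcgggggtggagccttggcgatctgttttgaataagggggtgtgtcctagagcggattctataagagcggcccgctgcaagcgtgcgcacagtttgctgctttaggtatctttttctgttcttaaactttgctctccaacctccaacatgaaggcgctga
The Id1 window held ATTGG at position -103, TATAAA at -59 and CAGAC at 24, counted from the annotated start. In the Id2 window, the CCAAT motif stood at -178, -139 and -95, whereas the Id3 window held none of the 4 motifs. Among all 33469 windows of the table, 37.5% held the CCAAT motif, 14.2% TATAAA, 50.1% CAGAC and 11.0% GGCGCC. Among the members, GGCGCC was found in the window of Grem1, at -91. These letters are a description of the windows and no binding was measured. Sequence outside the windows was not searched, so a window without a motif does not describe the rest of the gene's control region.

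The coverage of all transcripts corresponded to between 35778600 and 41112700 reads of 150 bases per library. Each list of lung cell type markers had a summed FPKM (fragment counts scaled to transcript length and library size) above 0 in every library. The sum was 4244 to 6553 for 5 alveolar type 2 genes. Pecam1, Cldn5, Foxj1 and Marco were not found and were not summed. Single markers varied, with Wt1 at 0 in model replicate 3. Cd68 was at 1.30 FPKM in control replicate 3 and 1.21 in model replicate 2, against 20.7 to 22.8 in the other libraries. The library of model replicate 3 stood apart on several lists. Its sum over 5 cardiac muscle genes was 27.7 FPKM against 6.41 to 11.4 in the other libraries, with Myh6 at 5.11 FPKM where the others held 0 to 0.034. Its smooth muscle sum was 167.9 FPKM against 94.3 to 130.3. The sum over 8 immediate early genes was 239.9 in this library against 345.3 to 385.5. Of these genes, Egr1 and Zfp36 were lower in control replicate 1 (14.8 and 7.46 FPKM) than in model replicate 3 (17.1 and 11.2). The sum over 6 fibroblast genes was 293.3 to 311.3 FPKM in the controls and 317.1 to 410.9 in the model, with the highest value in model replicate 3, and 1 of the 6, Col3a1, passed an unadjusted p of 0.05 (adjusted p = 0.934, limma), as 4.9% of all genes did. The log2 differences of the 6 were positive for Col1a1 (0.19), Col1a2 (0.22) and Col3a1 (0.30) and negative for Pdgfra (-0.06), Dcn (-0.13) and Lum (-0.10).

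None of the 10 members passed the test of a difference between model and control lungs. Each gene's FPKM was summed over its transcripts, put on a log2(FPKM + 1) scale and tested with limma in 1 fit over 19203 genes. At an unadjusted p of 0.05, 0 of the 10 members passed where 4.9% of all genes did. With the additional limit of a 2-fold ratio of group means, again 0 of 10 passed, against 1.53% of all genes, and at an adjusted p below 0.05 it was 0 of 10 against 0.0104%. The values of control and model overlapped for all 10 members, whereas 4.86% of all genes had every model sample above every control sample and 5.83% had every model sample below. That split of 45.4% higher depended on the scale: after rescaling to TPM, where all transcripts of a library add up to the same total, 77.8% of the genes whose groups stood apart were higher in the model. Among the genes at an unadjusted p of 0.05, the share that was higher went from 44.1% to 73.6%. The median log2 difference of the members was -0.05 and that of all genes was -0.01. All p-values measure the spread between these samples, the exact permutation test of 3 against 3 samples (two-sided throughout) cannot go below 0.1, and in bulk tissue fewer cells of a type and less RNA per cell cannot be told apart.

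**Figure D1:**
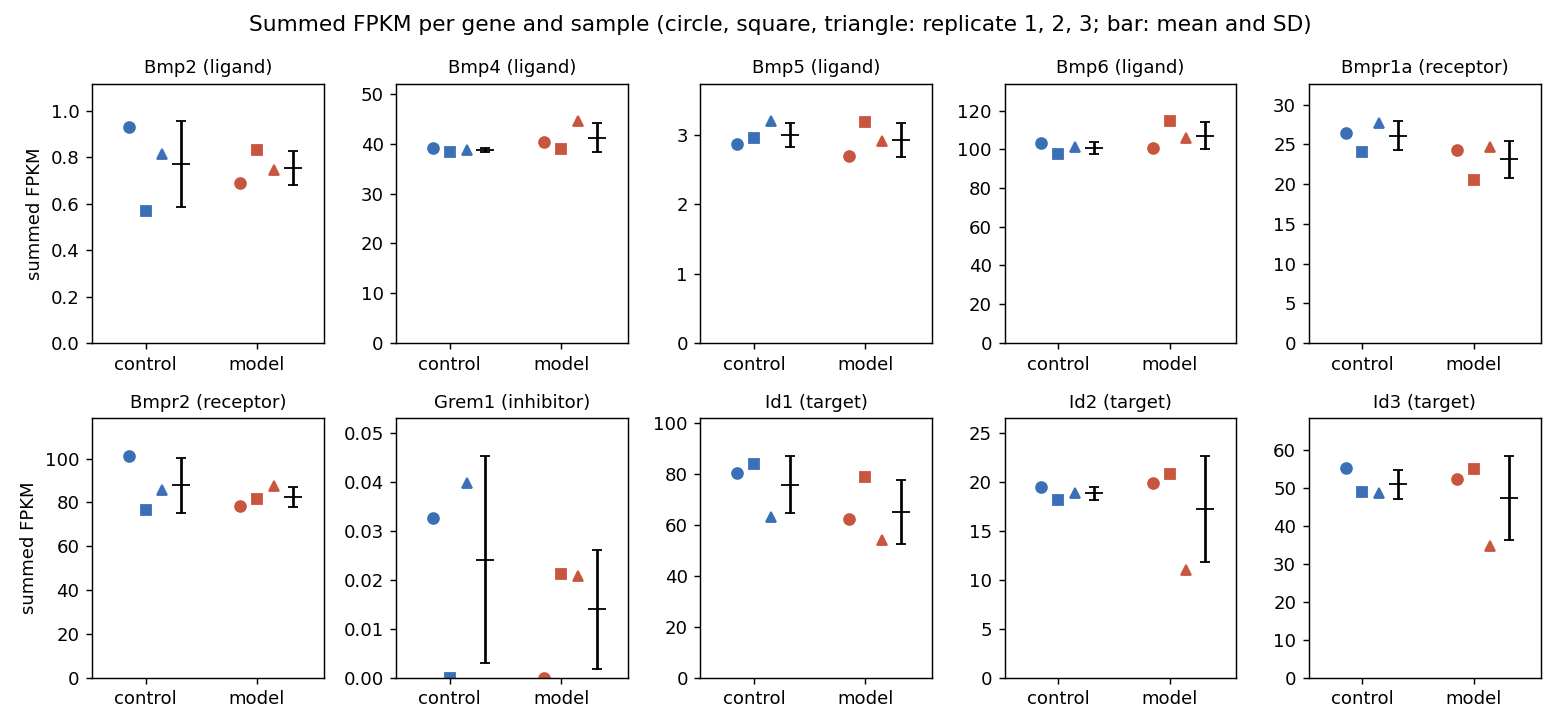
Summed FPKM (vertical axis, from 0) of each of the 10 members in the 3 control samples (blue) and the 3 model samples (red), with the mean and SD as a black bar beside each group; circles, squares and triangles are replicates 1, 2 and 3. Control and model values overlap in every panel, and the triangle of model replicate 3 is the lowest point for Id1, Id2 and Id3.

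Among the ligands, Bmp6 and Bmp4 were abundant, Bmp5 was low, and Bmp2 was below 1 FPKM. Bmp4, a ligand with a role in lung branching, was measured at 39.2, 38.4 and 38.7 FPKM in the controls and at 40.4, 38.9 and 44.6 in the model. The lowest model value lay within the range of the controls and model replicate 3 held the highest value. The model minus control difference was 0.09 ± 0.07 (SE, log2 scale, 95% interval -0.09 to 0.27, adjusted p = 0.934 in limma, exact permutation p = 0.2). The difference was 0.17 in TPM, 0.02 when transcripts were weighted by length in the sum, and 0.03 without model replicate 3, none of them past an unadjusted p of 0.05 in limma. Over its 2 annotated transcripts alone, Bmp4 was at 17.3, 22.0 and 18.6 FPKM in the controls and at 22.1, 23.1 and 28.5 in the model, with a difference of 0.33 on the log2 scale that did not pass in limma. On these 2 transcripts the groups were apart by a narrow margin, with 22.0 FPKM in control replicate 2 and 22.1 in model replicate 1 (unadjusted p = 0.054 in limma). On the sum over all 8 transcripts the groups overlapped. The share of all genes standing apart on annotated transcripts was not counted.

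Bmp6, which signals iron status from the endothelium to the liver and is also made in the lung, was listed at 103.3, 97.5 and 101.3 FPKM in the controls and at 100.7, 114.5 and 106.1 in the model. One of the 3 model values lay within the control range, and the difference was 0.09 ± 0.08 (SE, log2 scale, 95% interval -0.11 to 0.28, adjusted p = 0.934 in limma, exact permutation p = 0.3). Most of that sum came from transcripts inside its introns, which are described further on. Without them, Bmp6 was at 33.8, 32.7 and 41.5 FPKM in the controls and at 29.2, 37.9 and 42.9 in the model. The SD in the controls was then 4.80 FPKM against 2.94 in the full sum. In the model it was about the same, at 6.97 against 6.96, around a lower mean.

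Bmp5, a ligand of the same subgroup as Bmp6, was measured at 2.86, 2.95 and 3.19 FPKM in the controls and at 2.69, 3.18 and 2.91 in the model. Bmp2, a close relative of Bmp4, was at 0.929, 0.569 and 0.816 FPKM in the controls and at 0.688, 0.832 and 0.746 in the model. All 3 model samples lay between the lowest and the highest control for Bmp2. The differences were -0.03 ± 0.12 for Bmp5 and -0.01 ± 0.10 for Bmp2 (SE, log2 scale, exact permutation p = 0.7 and p = 1, adjusted p = 0.994 and 0.998 in limma), and both turned positive, at 0.04, after rescaling to TPM.

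Of the receptors, Bmpr1a (the type I receptor also known as Alk3) was measured at 26.5, 24.1 and 27.7 FPKM in the controls and at 24.3, 20.5 and 24.6 in the model. The difference was -0.17 ± 0.10 (SE, log2 scale, 95% interval -0.41 to 0.07, adjusted p = 0.934 and unadjusted p = 0.136 in limma, exact permutation p = 0.3). It was -0.09 in TPM and also without model replicate 2. Control replicate 2 lay below 2 of the 3 model samples. Bmpr2, the type II receptor, was at 101.2, 76.5 and 85.7 FPKM in the controls and at 78.6, 81.6 and 87.4 in the model. Control replicates 1 and 2 were its highest and lowest samples, with all 3 model samples between them. Its difference was -0.08 ± 0.12 (SE, log2 scale, adjusted p = 0.955 in limma, exact permutation p = 0.7), and it was 0.00 after rescaling to TPM, 0.03 without control replicate 1 and 0.19 over the annotated transcript alone.

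Grem1, the inhibitor, was listed at 0.033, 0 and 0.040 FPKM in the controls and at 0, 0.021 and 0.021 in the model. These levels correspond to between 0 and 7.41 reads per library, so that a difference in Grem1 was not detectable at this depth.

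Among the targets, Id1 was measured at 80.6, 84.0 and 63.1 FPKM in the controls and at 62.3, 79.0 and 54.2 in the model. Its difference was -0.22 ± 0.17 (SE, log2 scale, 95% interval -0.63 to 0.19, adjusted p = 0.934 in limma, exact permutation p = 0.2). It was -0.14 in TPM and -0.02 when transcripts were weighted by length in the sum, and with a sample left out it ranged from -0.37 (without model replicate 2) to -0.10 (without model replicate 3). Control replicate 3 was close to model replicate 1, and model replicate 2 was close to the other two controls. Id2 was at 19.5, 18.2 and 18.9 FPKM in the controls and at 19.9, 20.9 and 11.0 in the model. Id3 was at 55.2, 48.9 and 48.5 FPKM in the controls and at 52.4, 54.8 and 34.7 in the model. For both genes, model replicates 1 and 2 lay above the control median and model replicate 3 lay below every other sample. The differences were -0.17 ± 0.23 for Id2 and -0.13 ± 0.18 for Id3 (SE, log2 scale, adjusted p = 0.951 and 0.952 in limma, exact permutation p = 1 and p = 0.8).

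All 3 Id genes were thus lowest in model replicate 3, at 0.686, 0.566 and 0.662 of the median of the other 5 samples for Id1, Id2 and Id3. The 7 other members in that library were at 0.914 to 1.15 of the same median. Without model replicate 3 the difference was -0.10 for Id1, 0.11 for Id2 and 0.08 for Id3 on the log2 scale, none of them past an unadjusted p of 0.05 in limma. The same library held the lowest immediate early sum and the highest cardiac muscle sum, given above, and their part in the Id levels was not tested.

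**Figure D2:**
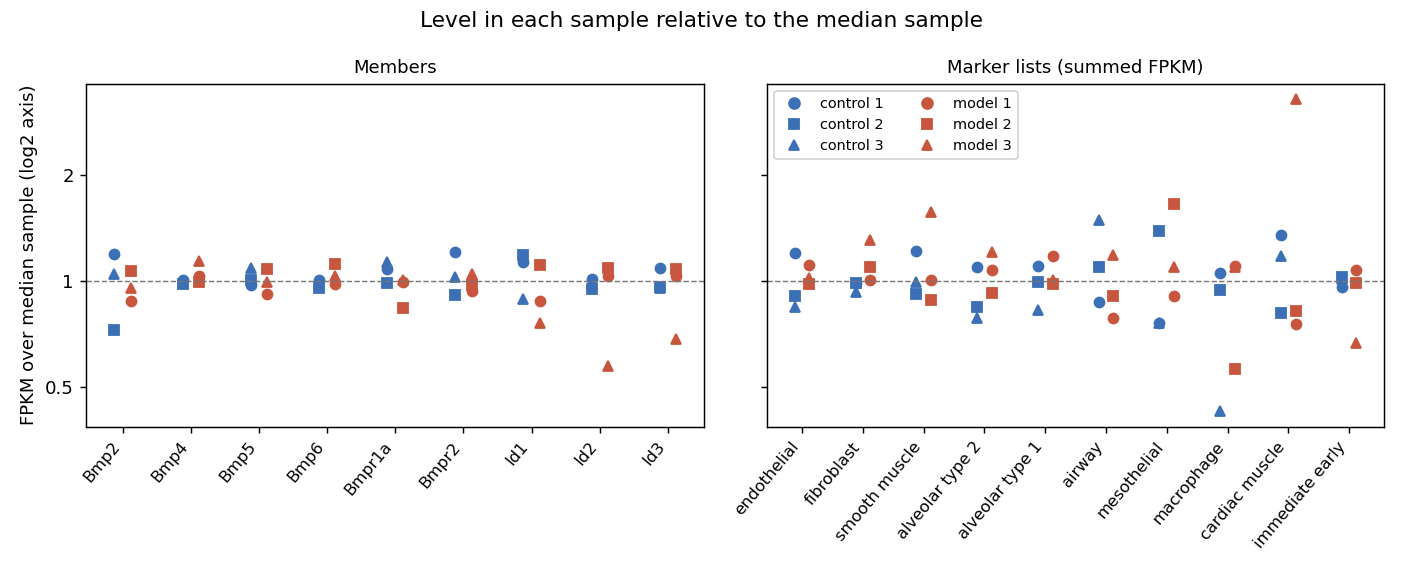
Level in each sample divided by the median of the 6 samples, on a log2 axis, for the members other than Grem1 (left) and for the summed FPKM of 10 marker lists (right); blue is control, red is model, and circles, squares and triangles are replicates 1, 2 and 3. Model replicate 3 (red triangle) is the lowest point for the 3 Id genes and for the immediate early list, and the highest for the cardiac muscle list.

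Because FPKM is scaled to transcript length, levels could also be set side by side between genes, here on the sum without intronic transcripts and over all 6 samples. Id1 was the highest at 70.5 ± 12.2 FPKM (mean ± SD, n = 6), followed by Bmpr2 at 62.4 ± 6.90, Id3 at 49.1 ± 7.61, Bmp4 at 40.0 ± 2.32 and Bmp6 at 36.3 ± 5.37. Bmpr1a was at 24.6 ± 2.47, Id2 at 18.1 ± 3.56, Bmp5 at 2.96 ± 0.193 and Bmp2 at 0.763 ± 0.126 (mean ± SD, n = 6), and Grem1 was last. Neighbours overlapped for Id1 and Bmpr2, Id3 and Bmp4, Bmp4 and Bmp6, and Bmpr1a and Id2, and the other neighbours in this order did not. On this sum, the ligands thus spanned from under 1 FPKM for Bmp2 to about the level of Id3 for Bmp4. The order depended on the transcripts summed, as the means over annotated transcripts alone show (control, then model). Id3 (32.7 and 30.6 FPKM) was then above Bmpr2 (20.5 and 23.5), and Bmpr1a (15.8 and 14.5) above Bmp6 (9.10 and 12.6). Likewise, Bmp2 (0.771 and 0.755) was above Bmp5 (0.185 and 0.224).

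The other genes of the pathway were examined as a list of 52 names, of which 48 had an annotated transcript and 44 passed the filter. Gdf2, Gdf6, Hjv and Chrdl2 had values above 0 in too few samples. The co-receptor Eng and the shared Smad4 had assembled transcripts only and were left out of the fit. None of the 44 passed an unadjusted p of 0.05 (limma, 4.9% of all genes), and 24 differences were positive and 20 negative, with a median of 0.01 on the log2 scale. By role, 10 of 16 inhibitors, 4 of 8 ligands, 4 of 8 receptors, 3 of 8 Smads and their regulators and 3 of 4 targets were on the positive side. Groups stood apart for 2 of the 44, Acvrl1 and the barely measured Cer1, both lower in the model (background 5.83%).

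Acvrl1, the type I receptor of endothelial cells for Bmp9 and Bmp10, was at 110.4, 123.6 and 110.4 FPKM in the controls and at 106.3, 97.5 and 99.5 in the model. Every model sample lay below every control sample, and the difference was -0.18 ± 0.08 (SE, log2 scale, adjusted p = 0.934 in limma, exact permutation p = 0.1). It was -0.10 in TPM, -0.13 after rescaling without small RNA names and -0.24 on annotated transcripts, and passed an unadjusted p of 0.05 in the last of these alone. The sum over 5 of 7 endothelial markers (Pecam1 and Cldn5 were not found) was 311.6 to 441.0 FPKM in the controls and 360.4 to 407.6 in the model. None of the 5 was listed at 0. Their log2 differences were positive for Vwf (0.37) and Tie1 (0.08) and negative for Kdr (-0.10), Cdh5 (-0.04) and Tek (-0.03). The other genes with the smallest limma p were Tob1, an inhibitor of Smad signalling (-0.32, exact permutation p = 0.3), and the ligand Bmp3 (-0.35, p = 0.2) on the negative side. On the positive side they were the inhibitors Chrdl1 (0.40, p = 0.3) and Nog (0.34, p = 0.4) and the iron hormone Hamp (0.31, p = 0.4), all log2 differences with an exact permutation p. Nog and Hamp were low, at 0.426 to 1.50 FPKM for Nog and 0 to 0.957 FPKM for Hamp over the 6 samples.

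**Figure D3:**
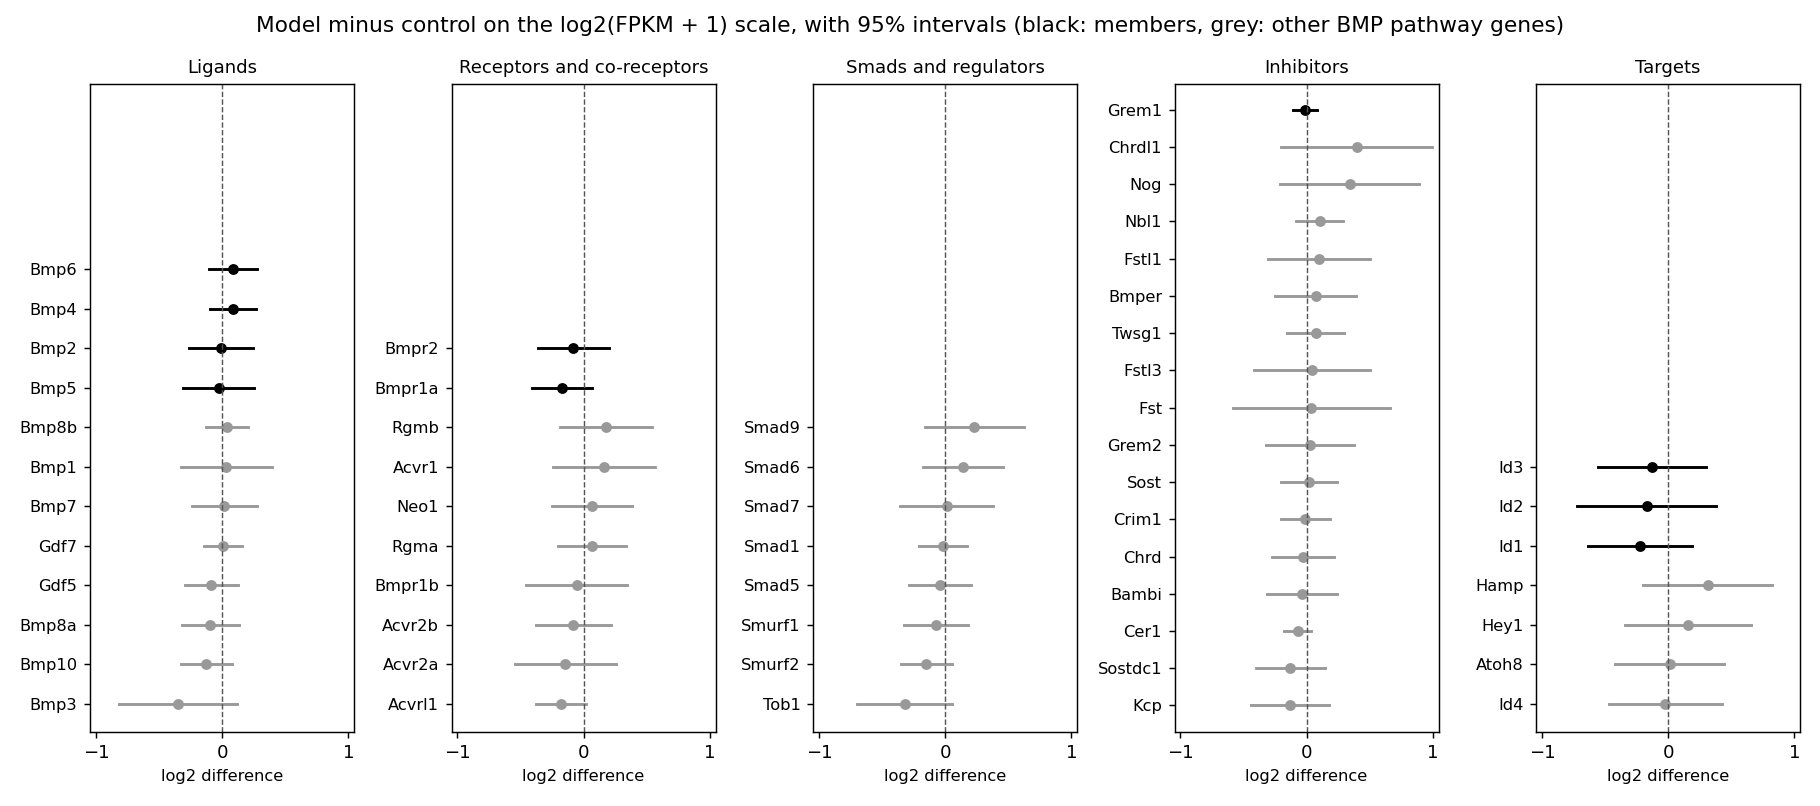
Model minus control difference on the log2(FPKM + 1) scale (horizontal axis) for the 10 members (black) and 44 other BMP pathway genes (grey), by role; points are limma estimates and lines their 95% intervals. The interval of each of the 54 genes includes 0.

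The 65 transcripts of the members are of several kinds, set by how the assembled transcript lies against the annotation. There were 12 that matched an annotated transcript, 24 that shared a splice junction with one, 23 that lay inside an intron, 4 that overlapped an exon on the same strand, 1 that overlapped an exon on the opposite strand and 1 that lay just beyond a gene's end. Bmp6 with 24 and Bmpr2 with 14 had the most, while Bmp2 and Grem1 had 1 each. The other 6 members had between 2 and 8.

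In Bmp6, 18 of its 24 transcripts lay inside introns of the gene, in 13 separate assembled loci, and they carried between 59.0% and 71.0% of its summed FPKM. In Bmpr2, 5 of 14 transcripts did, with 22.9% to 31.3% of the sum. Their shares overlapped between control and model for both genes (exact permutation p = 0.6 and p = 1). The assembler placed 17 of the 18 in Bmp6 and all 5 in Bmpr2 on the strand opposite to the host gene, 22 of 23, whereas over all genes it was 3468 of 5378 such transcripts with a strand (64.5%). A further 4270 such transcripts over all genes had no strand, and the 23 came from Bmp6 and Bmpr2 alone. The labels name a stranded library kit. Whether the assembly made use of strand is not given in the sources used here, and without it reads of a gene and of a transcript opposite to it cannot be told apart.

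**Figure D4:**
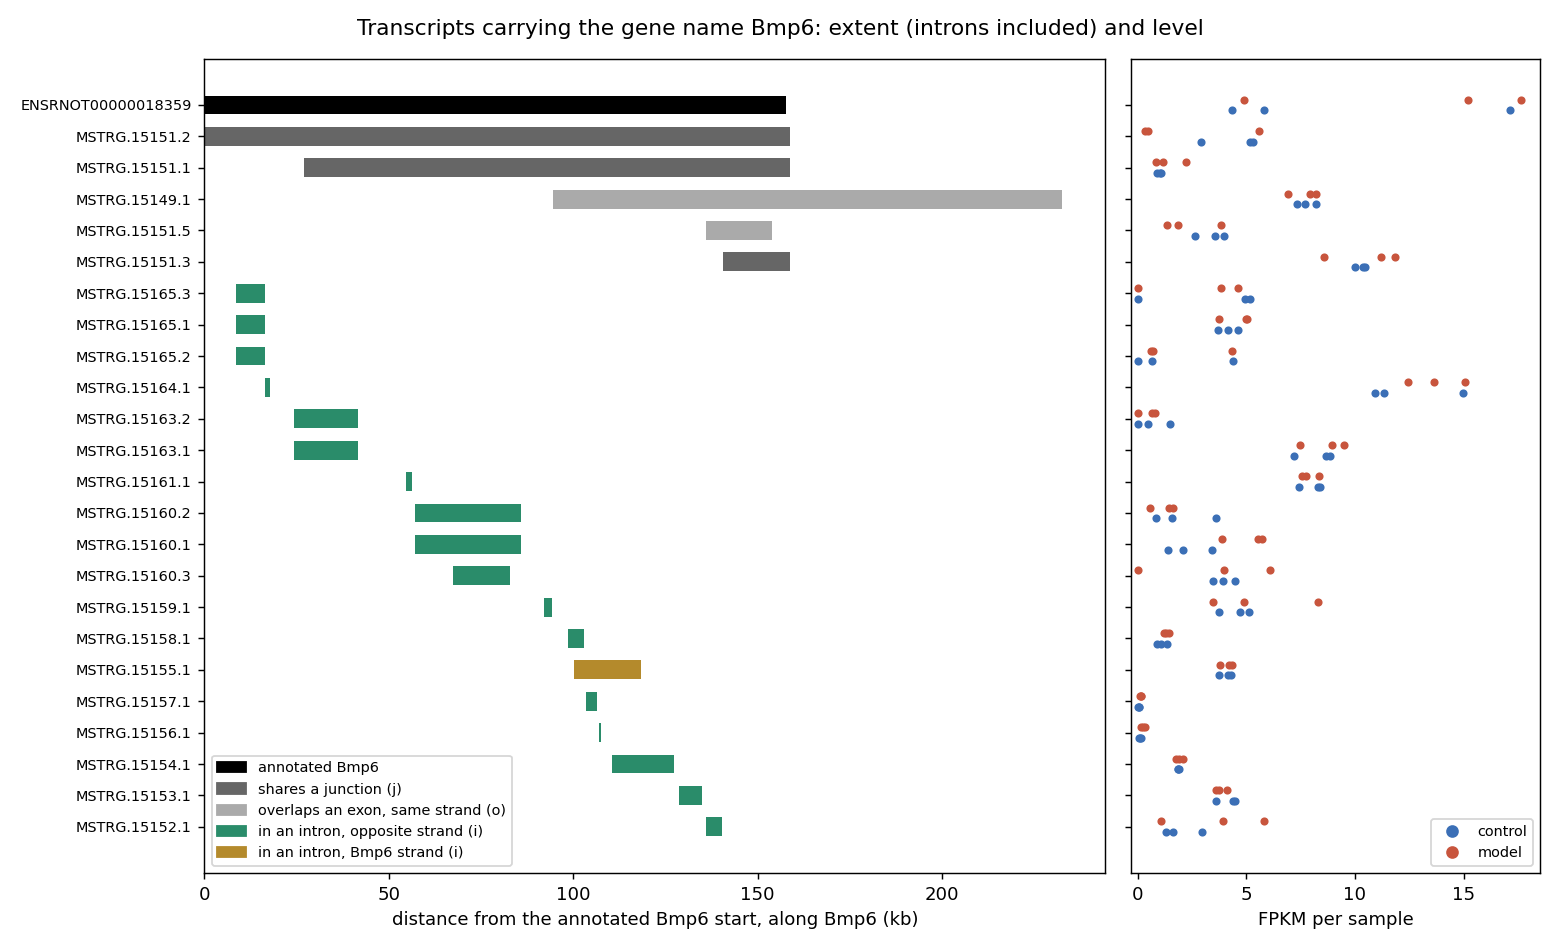
Left, extent of the 24 transcripts that carry the gene name Bmp6, introns included, as distance in kb from the start of the annotated transcript along the direction of Bmp6; right, FPKM of each transcript in the 3 control (blue) and 3 model (red) samples. The 18 intronic transcripts (green and ochre) spread over the length of the gene, 17 of them on the opposite strand, and the annotated transcript falls into a low and a high set of samples that each hold both groups.

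Of the 65 transcripts, 63 passed the filter of a value above 0 in at least 3 of 6 samples, and they were tested among 64867. An unadjusted p of 0.05 was reached by 4 of the 63 (6.35%), against 4.53% of all transcripts, and 1 of them also had a 2-fold ratio of group means (1.59% against 2.98%). At an adjusted p below 0.05 it was 0 of 63, against 0.0277% of all transcripts (limma). Every model sample was above every control sample in 4 of the 63 (background 4.12%), and below in 3 (background 6.29%). These shares were near those of all transcripts. The background split of 39.6% higher among transcripts standing apart became 61.2% after rescaling to TPM.

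The one past both limits was MSTRG.15160.1, a transcript inside a Bmp6 intron on the opposite strand (chr17:27027001-27055599, build not given in the sources used here). It was at 3.41, 1.40 and 2.07 FPKM in the controls and at 5.73, 3.88 and 5.52 in the model, with all 3 model samples above the controls. The difference was 0.91 ± 0.26 (SE, log2 scale, unadjusted p = 0.0149 and adjusted p = 0.945 in limma, exact permutation p = 0.1). The same locus held the isoform MSTRG.15160.2, whose start lay 9 bases away and which was at 1.59, 3.62 and 0.849 FPKM in the controls and 0.595, 1.62 and 1.45 in the model. The third isoform, MSTRG.15160.3, was listed at 3.95, 4.50 and 3.47 FPKM in the controls and at 3.96, 6.07 and 0 in the model.

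Summed over these 3 isoforms, the locus was at 8.95, 9.52 and 6.39 FPKM in the controls and at 10.3, 11.6 and 6.97 in the model. The groups then overlapped, and the difference was 0.18 on the log2 scale (unadjusted p = 0.417 in limma over 40805 loci, exact permutation p = 0.5). The call on MSTRG.15160.1 thus did not hold for its locus as a whole. With a sample left out, the locus difference ranged from 0.03 (without control replicate 3) to 0.38 (without model replicate 3, unadjusted p = 0.080 in limma). Over the 30 tested loci of the members, 2 (6.67%) passed an unadjusted p of 0.05, against 4.91% of all loci.

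Both of these loci lay within Bmpr2. MSTRG.37115.1, a 2-exon transcript overlapping Bmpr2 exons on the same strand (chr9:66590180-66640893), was at 7.01, 6.54 and 6.81 FPKM in the controls and at 5.52, 5.16 and 5.19 in the model. The spread within each group was small and the groups were apart, with a difference of -0.31 ± 0.09 (SE, log2 scale, unadjusted p = 0.0124 and adjusted p = 0.945 in limma, exact permutation p = 0.1). MSTRG.37114.1, on the opposite strand (chr9:66583151-66626431), was at 9.34, 7.63 and 8.29 FPKM in the controls and at 6.79, 6.06 and 7.20 in the model, a difference of -0.29 ± 0.11 (SE, log2 scale, unadjusted p = 0.0418 and adjusted p = 0.945 in limma, exact permutation p = 0.1). After rescaling to TPM, the differences were -0.25 for MSTRG.37115.1 and -0.23 for MSTRG.37114.1, and neither passed in limma. MSTRG.37115.1 passed an unadjusted p of 0.05 in each of 6 fits that left out a sample, whereas MSTRG.37114.1 did not pass in 4 of the 6 (without control replicates 1 or 3 or model replicates 1 or 2).

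Another Bmpr2 transcript, MSTRG.37111.2, shares junctions with the annotated one and was at 1.08, 2.44 and 1.65 FPKM in the controls and at 3.26, 3.45 and 2.44 in the model. Its highest control and lowest model samples were nearly equal, and the difference was 0.59 ± 0.23 (SE, log2 scale, unadjusted p = 0.0426 and adjusted p = 0.945 in limma, exact permutation p = 0.1). With a sample left out, it did not pass an unadjusted p of 0.05 in 4 of 6 fits (without control replicates 1 or 3 or model replicates 1 or 2). The annotated Bmpr2 transcript was at 26.5, 16.6 and 18.4 FPKM in the controls and at 17.5, 28.8 and 24.2 in the model, where the groups overlapped. A further isoform of the same locus, MSTRG.37111.4, was at 15.2 FPKM in control replicate 1 and at 0.253 to 0.376 in the other 5 samples. Control replicate 1 was also the sample with the highest Bmpr2 sum.

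Splits of this kind also occurred in other members. The Bmpr1a isoform MSTRG.13771.1 was listed at 4.58 FPKM in control replicate 1 and at 0 elsewhere, while MSTRG.13771.2 of the same locus was at 0.478 in that sample and at 4.08 to 5.19 in the others. The annotated Bmp6 transcript was at 5.81, 4.34 and 17.1 FPKM in the controls and at 4.91, 15.2 and 17.7 in the model, so that a low and a high level both occurred in each group. In all, 10 of the 65 transcripts were listed at 0 in at least 1 sample, and 2 were above 0 in 1 sample only. The same shares over all transcripts were not counted, so these counts do not set the members apart.

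The remaining transcripts whose groups stood apart did not reach an unadjusted p of 0.05. MSTRG.15156.1 and MSTRG.15157.1, both inside a Bmp6 intron, were higher in the model (exact permutation p = 0.1 for both), at no more than 0.360 FPKM in any sample. MSTRG.13770.1, which lies just beyond the end of Bmpr1a, was at 4.94, 4.87 and 6.35 FPKM in the controls and at 4.46, 4.33 and 3.89 in the model (-0.28 on the log2 scale, exact permutation p = 0.1).

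**Figure D5:**
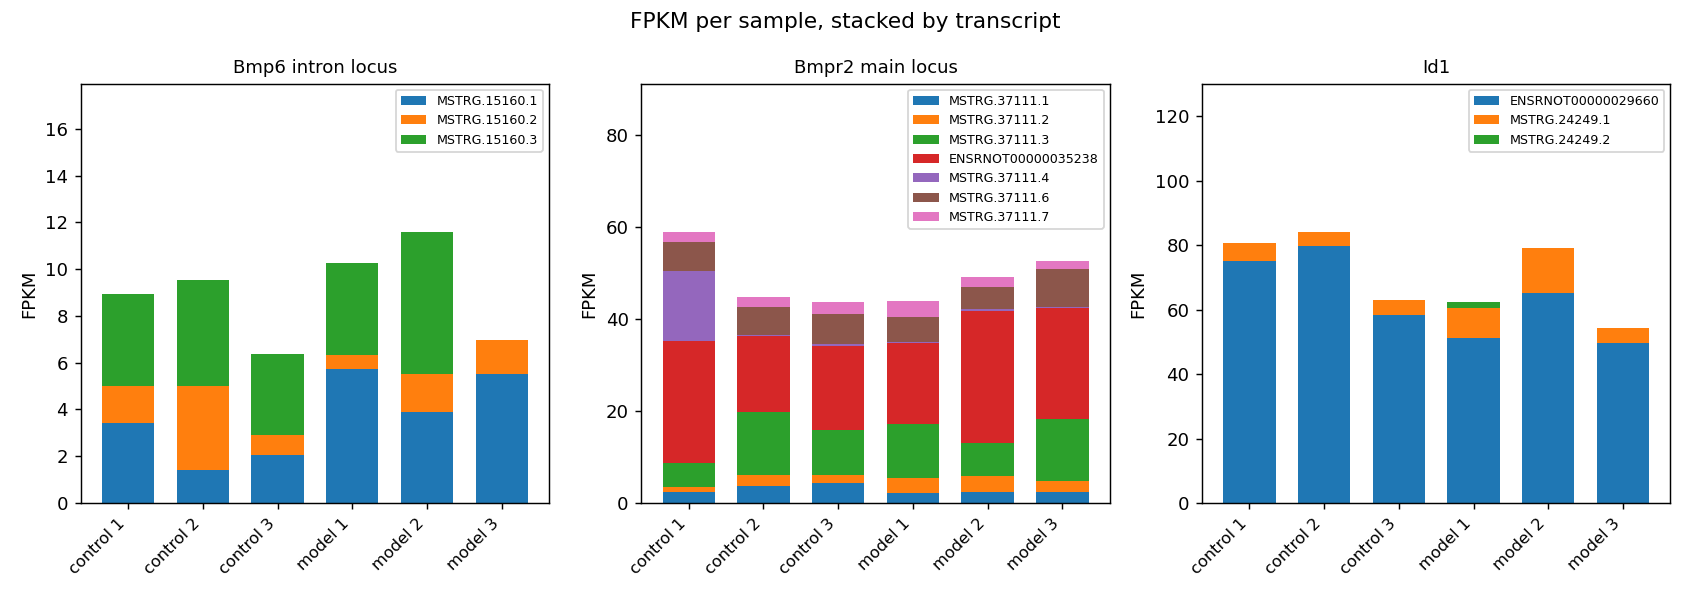
FPKM per sample, stacked by transcript, for the intronic Bmp6 locus with MSTRG.15160.1 (left), the main Bmpr2 locus (middle) and Id1 (right). In the left panel the blue part is larger in the 3 model samples while the column heights of control and model overlap, and in the middle panel the purple part of 15.2 FPKM is seen in control replicate 1 alone.

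For Id1, the share of FPKM in transcripts without an Ensembl identifier was 6.69%, 4.91% and 7.63% in the controls and 18.0%, 17.3% and 8.61% in the model. Every model sample was above the controls, with a mean of 6.41% ± 1.38 in the controls and 14.7% ± 5.25 in the model (SD, n = 3 each; exact two-sided permutation p = 0.1, the smallest that 3 against 3 samples can give). It was 1 of 8 members with both kinds of transcript (12.5%), against 3.69% of 9604 genes with a higher share in every model sample. No member had a lower share in every model sample, against 5.54% of those genes. The other 9 of 10 shares compared, intronic shares included, overlapped between groups.

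Most of the Id1 share came from MSTRG.24249.1, which starts with the annotated transcript and reaches 2067 bases past its end (chr3:148215540-148218785). It was at 5.39, 4.12 and 4.81 FPKM in the controls and at 9.57, 13.7 and 4.67 in the model. Model replicates 1 and 2 were above all controls and model replicate 3 was among them, so the difference of 0.74 ± 0.35 was within the spread (SE, log2 scale, adjusted p = 0.945 in limma, exact permutation p = 0.3). The annotated Id1 transcript was at 75.2, 79.9 and 58.3 FPKM in the controls and at 51.1, 65.3 and 49.5 in the model (-0.35 ± 0.18, SE, log2 scale, adjusted p = 0.945 in limma, exact permutation p = 0.2).

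Circular RNAs (circRNAs), which are closed by a back-splice between exons, gave a separate readout of the same loci. There were 7 with a member as host gene, in Bmp6, Bmpr1a and Bmpr2, with 41 back-splice reads in all, while the libraries held 2037 to 2964 such reads each. The circRNA of Bmp6 with the most reads, circRNA1444, spans 2 exons (chr17:26968192-26969252) and had 0, 5 and 2 reads in the controls and 7, 3 and 1 in the model. The one of Bmpr2, circRNA1154, also of 2 exons (chr9:66618610-66620541), had 4, 0 and 4 reads in the controls and 3, 2 and 0 in the model. Neither passed the test (log2 fold changes of 0.63 and -0.53, adjusted p = 0.990 for both, edgeR quasi-likelihood test), where 5.75% of 226 tested circRNAs passed an unadjusted p of 0.05, and neither passed it in DESeq2. The other 5 had between 1 and 3 reads each, which is too few to compare.

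Which genes followed Id1 and Bmpr2 most closely over the 6 samples was described by Pearson's r on the log2(FPKM + 1) scale among 13889 genes with a mean of at least 1 FPKM. For Id1 these were Etfrf1 (r = 0.993), Polr1d (r = 0.989) and LOC100362751 (r = 0.983), and 19 genes had an r of at least 0.95. For Bmpr2 they were Tefm (r = 0.998), MGC94199 (r = 0.981) and Topbp1 (r = 0.978), with 9 genes at or above 0.95. The points are 6 libraries that all genes share, and with this many genes and 6 samples such values are a description only.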

How the data were processed

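Per the labels, total RNA of 6 rat lungs was depleted of ribosomal RNA and sequenced. The authors aligned the reads, assembled transcripts and deposited FPKM and coverage (a signal) per transcript, and back-splice read counts per circRNA. The submitters' processing notes name HISAT2, StringTie and TopHat, and the genome build is not given in the sources used here. FPKM were summed per gene name, and genes or transcripts above 0 in at least 3 of 6 samples were fitted with limma 3.58.1 (R 4.3.3, trend) on log2(FPKM + 1), with Benjamini-Hochberg adjustment over all of them. Reads were estimated as coverage times length over 150 bases. CircRNAs with at least 10 reads were tested with edgeR 4.0.16 and, as an alternative, DESeq2 1.42.0. A simulation over 19203 genes planted a log2 change of 2 in 200 of them. After adjustment for multiple testing, 93% of the planted changes were found and 14 calls were wrong. Smaller changes were not simulated. The recovery therefore does not tell how often differences as small as those of the members (-0.22 to 0.09, log2 scale) would be found. The members, the lists and the rules for named genes (for other pathway genes the 3 smallest p in each direction) were chosen with earlier results of these data known. The study's methods give 3 model and 3 control rats for these libraries.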

Additional observations from a re-analysis of the deposited data

How the results depend on the processing

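No member passed an unadjusted p of 0.05 under any alternative (pseudocount, filter, scaling, sums over other transcripts, no trend, replicate block, each sample left out). Over all genes, 575 passed it after rescaling without small RNA names (940 as reported); 80 passed p and fold at a mean FPKM of at least 1 and 519 on annotated transcripts (293 as reported). At an adjusted p below 0.05, 7 passed on annotated transcripts, and 1 to 3 with a sample left out (1 without control replicate 1 or 3). Same-numbered samples did not deviate together more than other pairs (r of 0.07, 0.03 and -0.07, against -0.13 to 0.09). So few values cannot show whether they share more than a number. With the replicate block, 0 genes passed the adjusted threshold and 2 member transcripts the unadjusted one (4 as reported), MSTRG.37111.2 and MSTRG.37114.1 being lost. With the block, 864 genes passed the unadjusted p and 311 p and fold. It changed no other call on a member, a named pathway gene or a circRNA, and was not run for the shares. With the block, the locus of MSTRG.15160.1 kept its difference of 0.18 (unadjusted p = 0.101 in limma, 0.417 as reported). With a sample left out, MSTRG.37111.2 and MSTRG.37114.1 each lost the call in 4 of 6 fits, and MSTRG.37114.1 also in TPM, without small RNA names and at a mean FPKM of at least 1. MSTRG.37115.1 lost it in TPM and without small RNA names. With a sample left out, 3 to 8 member transcripts passed the unadjusted p (7 without model replicate 2, 8 without model replicate 3) and 1 to 5 passed p and fold (3 without control replicate 1, 2 without model replicate 1, 3 without model replicate 2, 5 without model replicate 3). Of the other pathway genes, 0 to 3 passed (Tob1, Bmp3 and Smurf2 without model replicate 1, Nog without model replicate 2), and 2, Acvrl1 and Id4, on annotated transcripts. Between 1 and 3 shares stood apart (2 without control replicate 1, control replicate 2 or model replicate 2, 3 without model replicate 1).

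Signs turned for Bmp2 (0.037 in TPM, 0.023 without small RNA names, -0.093 to 0.056 with a sample left out), Bmp5 (0.041 in TPM, 0.016 without small RNA names, 0.055 on the annotated transcript, -0.073 to 0.017 with a sample left out) and Bmpr2 (0.0037 in TPM, 0.19 on the annotated transcript, -0.17 to 0.026 with a sample left out, positive without control replicate 1). With a sample left out, Id2 ranged from -0.32 to 0.11 and Id3 from -0.25 to 0.077, positive without model replicate 3, circRNA1444 from -0.20 (without model replicate 1) to 1.999 and circRNA1154 from -1.18 to 0.16 (without model replicate 3). On annotated transcripts, Bmp3 was at 0.089 and Chrdl1 at -0.053. All these differences are on the log2 scale. The causes were not tested. MSTRG.15160.1 kept its direction and an unadjusted p under 0.05 in every refit of the transcript and lost it when its locus was summed, an alternative chosen after seeing the data. Depth limits Grem1 and the circRNAs.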
